A study of Mus musculus with 10 samples.

Results

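The regulators of mitochondrial biogenesis described here are 10 genes of a pathway, taken by their symbols: the PGC-1 coactivators Ppargc1a and Ppargc1b, the estrogen-related receptors Esrra, Esrrb and Esrrg, the nuclear factor Nrf1, the mitochondrial transcription genes Tfam, Tfb2m and Polrmt, and the muscle regulator Perm1. All 10 were found among the 54232 genes of the deposited table, and all 10 were among the 14289 genes that passed the expression limit and were tested. RNA was sequenced from muscle labelled as gastrocnemius, a calf muscle built mainly of fast fibers, of 5 homozygous desmin knock-out mice (Des -/-) and 5 wild-type mice (Des wt/wt). The text of the study also names the neighboring plantaris, so RNA of both muscles may be present. The mice were 3 months old, the wild-type mice were littermates, and both genotypes came from a line with the targeted Des allele Destm1Cba, which removes desmin from all tissues from the germ line on. Desmin is the main intermediate filament protein of muscle and ties myofibrils to nuclei, mitochondria and the cell membrane. The methods of the study speak of RNA that was pooled within a genotype, but the values come as 1 column per mouse, and these columns were taken as replicates.

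PGC-1 coactivators do not bind DNA themselves. They are recruited by transcription factors such as the estrogen-related receptors and Nrf1 and then raise the expression of nuclear genes of the respiratory chain, of fatty acid oxidation and of the mitochondrial transcription machinery. This machinery consists of Polrmt, the mitochondrial RNA polymerase, with Tfam, which packages and bends mitochondrial DNA, and Tfb2m, which opens the promoter. In skeletal muscle the pathway is known for its response to exercise, and it is more active in oxidative than in glycolytic fibers. All values are regularized log (rlog) values, a log2-scale expression measure from DESeq2 that corrects for library size and shrinks noisy genes to their average, so differences come out smaller than fold changes of counts.

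The libraries carried the Des level of their labels, with rlog values between 16.10 and 17.74 in wild-type and between 11.76 and 11.89 in desmin knock-out mice. Wild-type mouse 3 stood apart, with a mean correlation of 0.982 to the other wild-type mice, where the others had between 0.989 and 0.991, and the values of members are given with and without it below. Its summed unlogged level was 1.48 times the median of the mice, where the others had 0.95 to 1.06. Its median over tested genes was 8.45, where the others had 8.53 to 8.59. Wild-type mice varied more than knock-out mice in general: the median SD between mice over all tested genes was 0.25 in wild-type and 0.13 in desmin knock-out muscle, and 0.18 in wild-type muscle without mouse 3. Muscle markers were abundant in all mice, and 2 of 10 fast fiber markers were lower and none higher in desmin knock-out muscle. Of 8 slow fiber markers, 2 were higher and 1 lower. Among other cell types, 4 of 8 fibroblast markers were higher, 5 of 8 endothelial and 2 of 6 erythroid markers were lower, and none of 10 macrophage, 7 tested adipocyte or 6 Schwann cell markers passed. Of 6 muscle stem cell markers, 1 was higher and 1 lower. Over all tested genes, 7.7% were higher and 5.99% lower at the same limit, an adjusted p under 0.05 from limma. In a whole muscle, fewer cells of a type and less RNA per cell cannot be told apart. The summed level of the endothelial markers was 12.04 to 12.42 in desmin knock-out and 12.53 to 12.83 in wild-type mice, and that of the fibroblast markers 13.94 to 14.54 and 13.52 to 14.43. The part of these shifts in the results below was not tested.

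To show the regulatory sequence at these genes, the promoter windows of RefSeq on GRCm38.p6 were searched on both strands for 4 motifs of the pathway. The motifs were AAGGTCA, the extended half-site of estrogen-related receptors, GCGCATGC for NRF1, CCGGAAGT for GABP, the other classical nuclear respiratory factor, and TGACGTCA, the cAMP response element. A window covers 250 bases before and 50 after a start site, and 14 windows of 9 members were used, all members but Ppargc1b. No motif overlapped another in these windows. The half-site was found in 4.72% of all 32817 windows, the NRF1 motif in 2.71%, the GABP motif in 3.89% and the cAMP response element in 1.79%. The sequences below are the 250 bases before the RefSeq start, 5′ to 3′ on the strand of the gene, with motif matches in capitals. In GENCODE M21, Esrrg (from base 187608791), Perm1 (from 156215868), Tfam (to 71238280, reverse strand) and Esrra (to 6921813, reverse strand) begin further upstream. Part of their printed bases therefore lies within the annotated gene. For Esrrg and Tfam this is most of the stretch, and it includes the GABP match of Tfam. They are shown for Esrrg, the gene that changed, and for the 4 members with a match before the start.

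Esrrg: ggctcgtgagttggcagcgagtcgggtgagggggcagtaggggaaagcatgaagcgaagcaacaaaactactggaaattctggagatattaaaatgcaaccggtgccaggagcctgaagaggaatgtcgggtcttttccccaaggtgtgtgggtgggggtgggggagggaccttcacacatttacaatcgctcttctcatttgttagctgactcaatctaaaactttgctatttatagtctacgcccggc
Perm1: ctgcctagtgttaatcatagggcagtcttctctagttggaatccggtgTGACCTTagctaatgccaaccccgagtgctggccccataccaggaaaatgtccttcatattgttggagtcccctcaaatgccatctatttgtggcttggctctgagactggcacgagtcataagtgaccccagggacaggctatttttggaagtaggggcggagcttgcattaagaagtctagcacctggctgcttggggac
Esrra: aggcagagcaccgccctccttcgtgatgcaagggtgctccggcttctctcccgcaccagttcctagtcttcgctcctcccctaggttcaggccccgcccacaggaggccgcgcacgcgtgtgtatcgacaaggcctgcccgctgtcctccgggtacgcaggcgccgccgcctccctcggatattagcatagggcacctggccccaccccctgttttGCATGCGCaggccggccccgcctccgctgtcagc
Tfam: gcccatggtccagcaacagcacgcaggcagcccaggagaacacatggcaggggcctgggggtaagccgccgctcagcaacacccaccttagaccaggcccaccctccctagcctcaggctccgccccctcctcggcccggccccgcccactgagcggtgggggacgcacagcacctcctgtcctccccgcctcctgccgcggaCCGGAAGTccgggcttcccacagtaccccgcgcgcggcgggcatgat
Polrmt: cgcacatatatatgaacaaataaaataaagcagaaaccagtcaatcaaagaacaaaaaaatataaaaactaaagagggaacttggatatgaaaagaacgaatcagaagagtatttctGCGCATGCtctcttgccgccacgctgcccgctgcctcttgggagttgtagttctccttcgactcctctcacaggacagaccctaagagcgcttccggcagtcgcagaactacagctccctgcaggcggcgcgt

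The window of Esrrg is that of its first RefSeq start (chr1:187608756-187609005, forward strand), and neither this window nor those of its 3 other starts held any of the motifs. Perm1 (chr4:156215677-156215926, forward strand) held the half-site on the opposite strand, with its first printed base at position -202, where -1 is the last base before the start. Esrra (chr19:6921809-6922058, reverse strand) held the NRF1 motif on the opposite strand from position -34, and Polrmt (chr10:79746582-79746831, reverse strand) held it from position -133. Tfam (chr10:71238045-71238294, reverse strand) held the GABP motif from position -47. Tfb2m had an NRF1 match 14 bases after its start, and the windows of Ppargc1a, Nrf1 and Esrrb had no match. A match is a description of the letters and not a bound site.

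Of the 10 regulators, 1 was higher in desmin knock-out muscle at an adjusted p under 0.05 and none was lower (limma, adjustment over all tested genes). Among all tested genes 13.7% passed, 7.7% as higher and 5.99% as lower, so the number of changed regulators was near that of genes in general. The gene was Esrrg, and it was also the only member whose 5 knock-out values did not overlap with the 5 wild-type values, as 14.4% of tested genes did. Of the other members, 3 had higher and 6 had lower means in the knock-out group, with differences of at most 0.18 in size and adjusted p between 0.352 and 0.968. The median difference of the 10 members was -0.030, compared with -0.0029 over all tested genes.

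**Figure D1:**
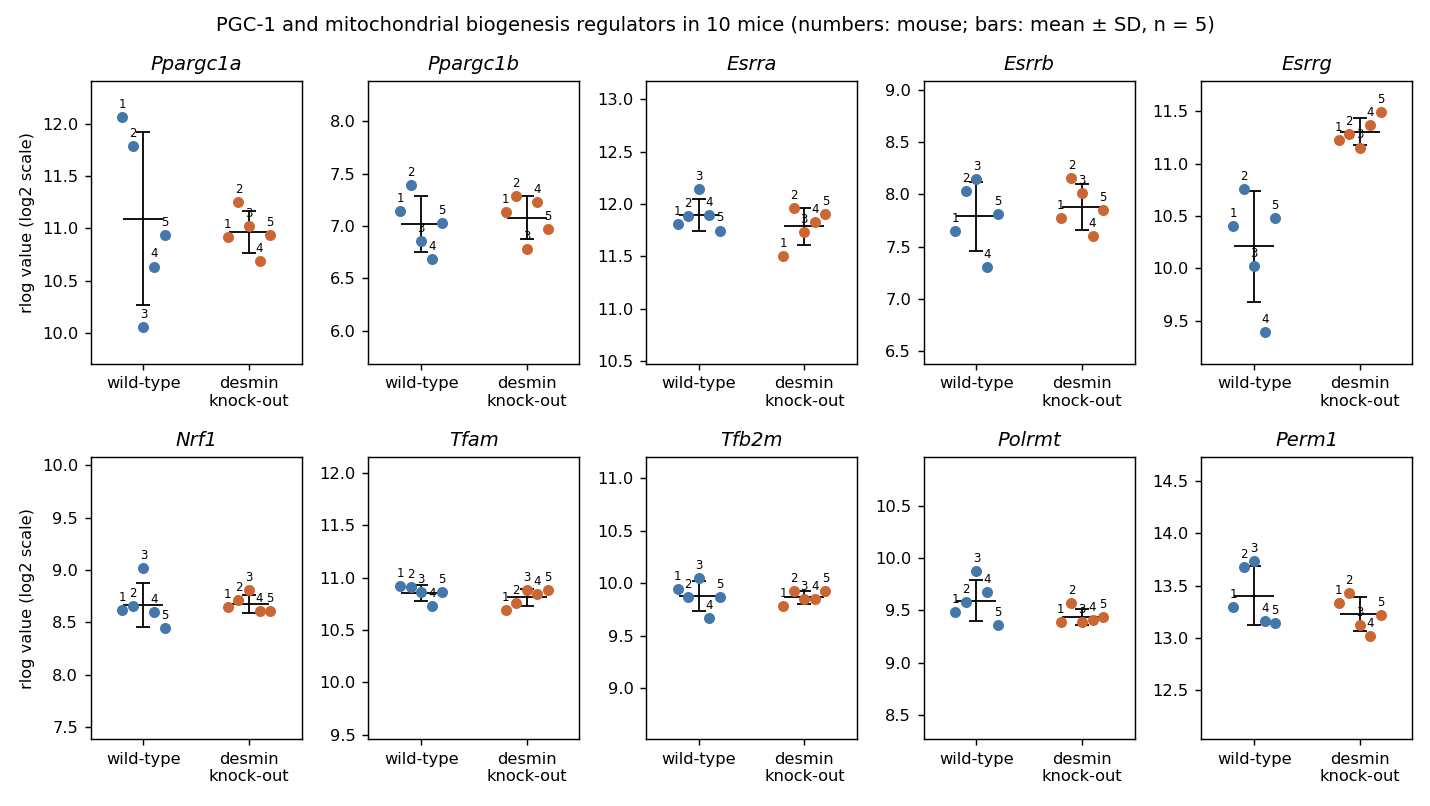
The rlog value (log2 scale) of each of the 10 regulators in each mouse is plotted by genotype, with mouse numbers beside the points and the mean ± SD (n = 5) as bars; every panel spans the same number of log2 units. Esrrg is the only panel in which the genotypes separate, and Ppargc1a has the widest wild-type spread.

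Esrrg encodes ERRγ, the estrogen-related receptor that is abundant in oxidative tissues and in slow fibers. Its rlog values in desmin knock-out mice 1 to 5 were 11.23, 11.28, 11.15, 11.37 and 11.49, and in wild-type mice 1 to 5 they were 10.40, 10.75, 10.02, 9.39 and 10.48. All knock-out mice lay within a narrow band above the highest wild-type mouse, and wild-type mouse 4 was the lowest of all. The group means of 11.30 ± 0.13 and 10.21 ± 0.53 (SD, n = 5 each) differed by 1.09 on the log2 scale (standard error, SE, 0.20, limma adjusted p = 0.00239), which corresponds to 2.13-fold on the rlog scale. An exact two-sided permutation test of the 10 values gave p = 0.00794, and with 5 mice per genotype no smaller p is possible. This difference was larger than that of 98.1% of tested genes in size.

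Esrrg kept its direction and its adjusted p under 0.05 in all 20 alternatives of the analysis, with adjusted p from 4.5e-05 to 0.0259. Some of these, such as other expression limits, cannot alter the difference itself. Without wild-type mouse 3 the log2 difference was 1.05 (SE 0.21), and without wild-type mouse 4 it was 0.89. In GRCm38, Esrrg (ENSMUSG00000026610) spans bases 187608791 to 188214885 of chromosome 1, forward strand. This is the chromosome of Des, and the gene starts 112 Mb from the end of Des.

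Esrra encodes ERRα, the receptor through which PGC-1α acts on many genes of oxidative metabolism and which PGC-1α also induces. Its rlog values were 11.50, 11.96, 11.73, 11.83 and 11.90 in desmin knock-out mice 1 to 5 and 11.81, 11.88, 12.14, 11.90 and 11.75 in wild-type mice 1 to 5. The genotypes overlapped, and the highest value belonged to wild-type mouse 3. The log2 difference was -0.11 (95% interval -0.34 to 0.12, adjusted p = 0.54 from limma), and -0.049 without wild-type mouse 3. An exon of Trmt112 on the opposite strand covers 1.66% of the exonic bases of Esrra, and the microRNA gene Mir6990 on the same strand covers 2.07%. How reads there were counted is not known, since the settings of the counting are not given in the sources used here. For Mir6990, strand could not separate the genes.

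Esrrb encodes ERRβ, the receptor best known from embryonic stem cells. Its values lay between 7.60 and 8.16 in desmin knock-out and between 7.30 and 8.15 in wild-type mice, with a log2 difference of 0.090 (95% interval -0.25 to 0.43, adjusted p = 0.75 from limma). The difference was 0.18 without wild-type mouse 3 and -0.031 without wild-type mouse 4. The change of Esrrg differed from that of Esrra. Within each mouse, Esrrg minus Esrra was -0.48 ± 0.15 in the knock-out and -1.69 ± 0.60 in the wild-type group (SD, n = 5 each). The ranges were -0.68 to -0.28 and -2.51 to -1.13 and did not overlap. The difference of 1.20 between the genotypes had p = 0.00794 in the exact permutation test, and p = 0.0238 after adjustment over the 3 pairs of members compared in this way. These are the smallest values possible here. Esrrg alone already separated the genotypes, so the pair is not independent of that result.

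**Figure D2:**
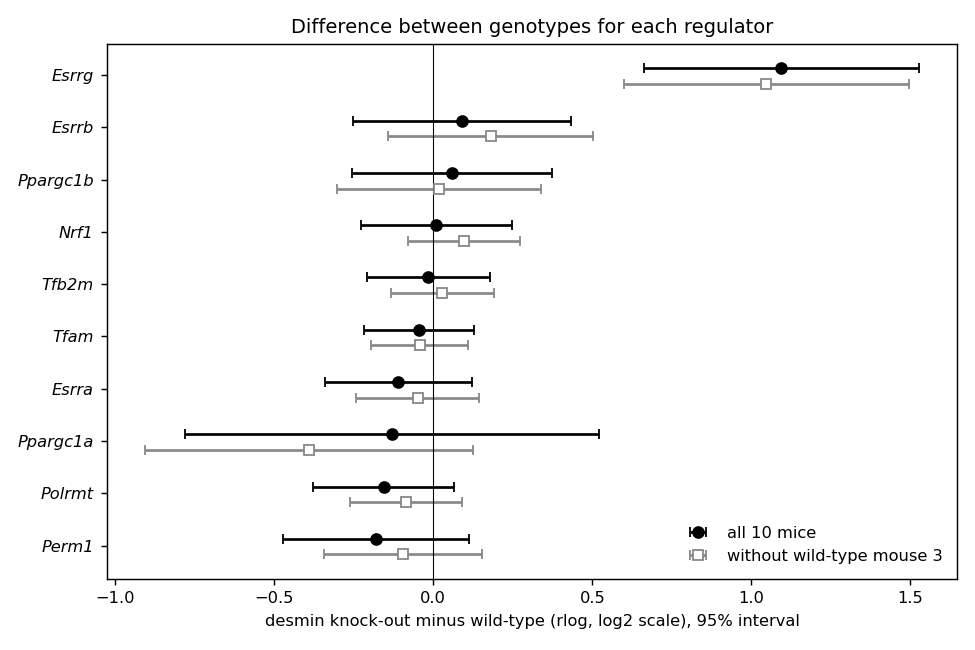
Points give the difference of each regulator between desmin knock-out and wild-type muscle on the rlog (log2) scale with its 95% interval from limma, for all 10 mice (circles) and without wild-type mouse 3 (squares). The interval of Esrrg, 0.66 to 1.53, lies above 0, whereas those of the other 9 members include it, and that of Ppargc1a is the widest.

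Ppargc1a encodes PGC-1α, the coactivator that rises with exercise, fasting and cold. Its rlog values were 10.92, 11.25, 11.02, 10.69 and 10.94 in desmin knock-out mice 1 to 5 and 12.06, 11.78, 10.05, 10.64 and 10.93 in wild-type mice 1 to 5. Wild-type mice 1 and 2 lay above and wild-type mice 3 and 4 below all knock-out mice. The mean was 10.96 ± 0.20 in the knock-out and 11.09 ± 0.83 in the wild-type group (SD, n = 5 each). The log2 difference of -0.13 (SE 0.30, limma adjusted p = 0.815) is well within this spread, and its 95% interval reaches from -0.78 to 0.52. The exact permutation test gave p = 0.794. The SD between wild-type mice was larger than that of 99.6% of tested genes, and 4.09 times that between knock-out mice, where the median ratio over tested genes was 1.90. Esrrg had a similar ratio of 4.07.

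The value of Ppargc1a differed between analyses. The log2 difference was -0.39 without wild-type mouse 3 (adjusted p = 0.308 from limma), but 0.11 without wild-type mouse 1 and 0.043 without wild-type mouse 2. It passed as lower in desmin knock-out muscle in 3 of 20 alternatives, namely with sample weights (-0.78, adjusted p = 0.00343), when the fit included the Y-linked level of each mouse (-0.56, adjusted p = 0.0434) or its immediate-early level (-0.78, adjusted p = 0.0121; all limma). The Y-linked level, a mean of 4 transcripts, was 10.25 to 10.57 in desmin knock-out and 9.52 to 10.62 in wild-type mice.

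The immediate-early transcripts, which muscle and nerve activity or handling induce within minutes, resembled Ppargc1a in part among the wild-type mice. Their mean level was 9.42 and 8.94 in wild-type mice 1 and 2, 8.02, 8.13 and 8.06 in wild-type mice 3 to 5, and between 8.92 and 9.29 in desmin knock-out mice. The wild-type mice with the highest Ppargc1a were therefore also those with the highest immediate-early level. Within wild-type mice 3 to 5 this level was nearly flat, whereas Ppargc1a went from 10.05 to 10.93. The SD between wild-type mice ranged from 0.12 to 1.95 over the genes of the list, so the mean does not describe all of them alike. Of the 15 genes of this list, all tested, 6 were higher in desmin knock-out muscle and none lower. This was 40% of the list, compared with 13.7% of all tested genes. The median difference of the list was 0.50, and 0.17 with sample weights. Egr3 (log2 difference 0.87, SE 0.12), Egr2 (1.02, SE 0.15) and Dusp1 (0.50, SE 0.10) had the smallest adjusted p. The part of this list in the level of Ppargc1a was not tested. The fit with the immediate-early covariate cannot show it, since 6 of the genes in the covariate themselves differed between the genotypes.

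The 3 genes whose centred values over the 10 mice were closest to Ppargc1a were Csrnp1, which encodes a nuclear protein, Slc38a2, which encodes a neutral amino acid transporter, and Impact, a gene for a regulator of translation. Their root mean square differences from Ppargc1a were 0.21, 0.22 and 0.24 on the log2 scale. Csrnp1 had its highest values in wild-type mice 1 and 2 (8.87 and 8.28) and its lowest in wild-type mice 3 and 4 (6.95 and 6.97), with 7.32 to 7.69 in the knock-out mice. These genes were chosen by the same 10 values, so their genotype difference was not tested.

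**Figure D3:**
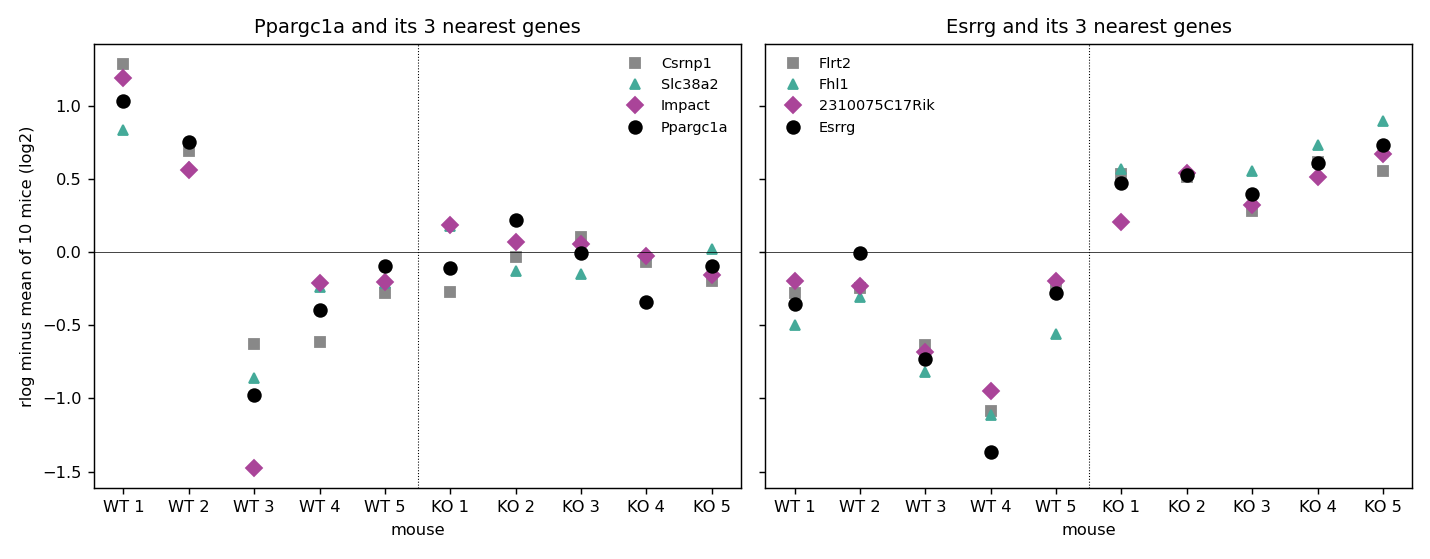
The rlog value minus the mean of the 10 mice is plotted for each mouse, for Ppargc1a and Esrrg (black circles) and for the 3 genes closest to each in root mean square difference; the dotted line separates wild-type (WT) from desmin knock-out (KO) mice. Ppargc1a and its neighbors peak in wild-type mice 1 and 2 and drop in wild-type mouse 3, whereas Esrrg and its neighbors lie above their means in all knock-out mice, a likeness by which the neighbors were chosen.

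Ppargc1b encodes PGC-1β, the related coactivator that is less responsive to exercise. Its values lay between 6.78 and 7.28 in desmin knock-out and between 6.68 and 7.39 in wild-type mice, with a log2 difference of 0.059 (95% interval -0.26 to 0.37, adjusted p = 0.827 from limma). It was 0.018 without wild-type mouse 3 and -0.026 without wild-type mouse 4. The within-mouse difference of Ppargc1a and Ppargc1b was 3.88 ± 0.29 in the knock-out and 4.07 ± 0.64 in the wild-type group (SD, n = 5 each), which gave p = 0.579 in the exact permutation test (0.603 adjusted over the 3 pairs). The difference between the genotypes was -0.19, with -0.41 when wild-type mouse 3 was left out and 0.022 when wild-type mouse 1 was.

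Perm1, a muscle protein that PGC-1 and estrogen-related receptors induce and that itself raises oxidative genes, was the most abundant member. Its rlog values were 13.33, 13.43, 13.13, 13.02 and 13.22 in desmin knock-out mice 1 to 5 and 13.30, 13.68, 13.74, 13.17 and 13.15 in wild-type mice 1 to 5. Wild-type mice 2 and 3 were the highest, and knock-out mice 3 and 4 lay below all wild-type mice. The log2 difference was -0.18 (95% interval -0.47 to 0.11, adjusted p = 0.423 from limma), the largest in size among the 9 members that did not pass, and -0.096 without wild-type mouse 3. The genes closest to Perm1 over the 10 mice were B4galnt3, Plekhb2 and Lynx1, with root mean square differences of 0.093, 0.098 and 0.10.

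Nrf1 encodes nuclear respiratory factor 1, which binds the promoters of many nuclear genes for mitochondrial proteins. It is not Nfe2l1, which is also known as NRF1 and is no member. Its values lay between 8.61 and 8.81 in desmin knock-out mice and between 8.45 and 8.66 in wild-type mice other than mouse 3, which had 9.02. The log2 difference was 0.0092 (95% interval -0.23 to 0.25, adjusted p = 0.968 from limma), and 0.097 without wild-type mouse 3. Median centring and quantile normalization turned its sign.

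Tfam and Tfb2m had the smallest SD between wild-type mice of all members. Tfam values lay between 10.69 and 10.88 in desmin knock-out and between 10.73 and 10.92 in wild-type mice, with means of 10.81 ± 0.08 (SD, n = 5) and 10.86 ± 0.08 (SD, n = 5). The log2 difference was -0.044 and its 95% interval of -0.22 to 0.13 is the narrowest of all members (adjusted p = 0.758 from limma). Without wild-type mouse 3 the difference was -0.043. Only 2.56% of tested genes had an SD as small as that of Tfam in wild-type mice. Tfb2m values lay between 9.78 and 9.93 in desmin knock-out and between 9.66 and 10.05 in wild-type mice, with a log2 difference of -0.015 (95% interval -0.21 to 0.18, adjusted p = 0.929 from limma) and of 0.028 without wild-type mouse 3. Tfam minus Tfb2m within each mouse was 0.95 ± 0.08 in the knock-out and 0.98 ± 0.10 in the wild-type group (SD, n = 5 each) (exact permutation test, p = 0.603).

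Polrmt had 9.39, 9.57, 9.39, 9.40 and 9.43 in desmin knock-out mice 1 to 5 and 9.48, 9.57, 9.87, 9.67 and 9.36 in wild-type mice 1 to 5. The genotypes overlapped, and wild-type mouse 3 was the highest. The log2 difference was -0.16 (95% interval -0.38 to 0.065, adjusted p = 0.352 from limma), and -0.086 without wild-type mouse 3, which had the highest wild-type value in 6 of the 10 members.

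Levels of different genes can be compared only per length. As rlog minus log2 of the exonic length in kb, Perm1 had the highest level over all 10 mice with 11.35, followed by Esrra with 9.71 and Tfam with 8.68, and each of them lay above the next in all 10 mice. Tfb2m (8.38), Ppargc1a (8.31) and Esrrg (8.12) followed, and their gaps of 0.077 and 0.18 were smaller than the SD of these gaps between mice, 0.58 and 0.80. Polrmt had 7.29, and its gap of 0.84 to Esrrg was close to the SD of 0.79 between mice. Nrf1 (5.31), Esrrb (5.24) and Ppargc1b (5.05) were the lowest, with gaps of 0.073 and 0.18 that were also within their SD. In wild-type muscle Esrrg was 6th with 7.58, whereas in desmin knock-out muscle it was 3rd with 8.67, beside Tfam with 8.66.

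Of 29 upstream and partner regulators of PGC-1, 28 were tested, 1 was higher and 5 were lower in desmin knock-out muscle. This was 21.4% of those tested, compared with 13.7% of all tested genes. The median difference was -0.12, and -0.041 without wild-type mouse 1. With wild-type mouse 3 left out 7 genes were lower, and with sample weights 11. Lower calls among all 14289 tested genes also rose in these fits, from 856 to 1161 and to 2127. Prkaa1, which encodes the α1 catalytic subunit of AMP-activated protein kinase, the energy sensor that acts on PGC-1α, had 10.33 ± 0.06 in the knock-out and 9.45 ± 0.20 in the wild-type group (SD, n = 5 each). Its log2 difference was 0.87 (SE 0.10, limma adjusted p = 7.7e-05), and its values of 10.27 to 10.42 and 9.21 to 9.66 did not overlap. Camk2a, a calcium-dependent kinase, was lower by a log2 difference of -0.54 (SE 0.10, adjusted p = 0.00239), and so was Ppard, the nuclear receptor PPARδ, by -0.68 (SE 0.14, adjusted p = 0.0055; both limma). Each of these 3 genes passed in all 19 fits of the alternatives.

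The other genes of this list that passed were named after their values were seen. Rxra, the partner receptor of PPARs, had a log2 difference of -0.70 (adjusted p = 0.00761), the stress kinase gene Mapk14 -0.43 (adjusted p = 0.00582) and Prkag3, the γ3 subunit of AMP-activated protein kinase of fast fibers, -0.55 (adjusted p = 0.0208; all limma). Rxra and Mapk14 passed in 18 and Prkag3 in 15 of 19 fits. Prkaa2, the α2 subunit that prevails in muscle, did not pass, with -0.11 (adjusted p = 0.566 from limma).

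Of 25 further genes for mitochondrial transcription and the upkeep of mitochondrial DNA, all tested, 4% passed, compared with 13.7% of all tested genes. The median difference of the list was -0.012. In number, 1 gene was higher and none lower. This gene was Mterf1a, a factor for termination of mitochondrial transcription, with 5.01 ± 0.09 in the knock-out and 4.54 ± 0.30 in the wild-type group (SD, n = 5 each) and a log2 difference of 0.46 (SE 0.14, limma adjusted p = 0.046). It passed in 4 of 18 fits of the alternatives, with a mouse left out only without wild-type mouse 5, and not without wild-type mouse 3 (0.35, adjusted p = 0.058 from limma).

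Of 28 target genes of PGC-1 and estrogen-related receptors, all tested, 1 was higher and 1 lower, and the other 26 did not pass. The share that passed was 7.14%, compared with 13.7% of all tested genes. The median difference of the 28 target genes was -0.11, and 0.014 after quantile normalization. Pdk4, the kinase that shuts the pyruvate dehydrogenase complex and thereby favors fatty acid use, had 15.94 ± 0.29 in the knock-out and 14.69 ± 0.49 in the wild-type group (SD, n = 5 each). Its log2 difference was 1.25 (SE 0.22, limma adjusted p = 0.00163), with values from 15.51 to 16.31 and from 14.20 to 15.24, and it passed in all 19 fits. With sample weights, 1 target was higher and 6 were lower. In that fit 4220 of all 14289 tested genes passed, 2127 of them as lower. Fndc5, which encodes the precursor of irisin, was lower with a log2 difference of -0.61 (SE 0.14, limma adjusted p = 0.0117). It passed in 18 of 19 fits and not with the immediate-early covariate (limma adjusted p = 0.112). The transcripts of citrate synthase, Cs (-0.074), and cytochrome c, Cycs (-0.10), did not pass (adjusted p = 0.678 and 0.554, limma). Both were named outside the rule given below, and mitochondrial content itself was not measured.

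None of the 8 tested genes among the 13 protein-coding genes of mitochondrial DNA passed, and their median difference was -0.12, compared with 0.0081 without wild-type mouse 3 and 0.18 after quantile normalization. The other 5 genes of mitochondrial DNA lay under the expression limit. Of the 8, mt-Nd3 was close to it, with 3.51 in desmin knock-out and 3.57 in wild-type muscle. At the stricter limit of log2(50), 7 genes were tested, with a median difference of -0.17. In the main test 13.7% of all tested genes passed.

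**Figure D4:**
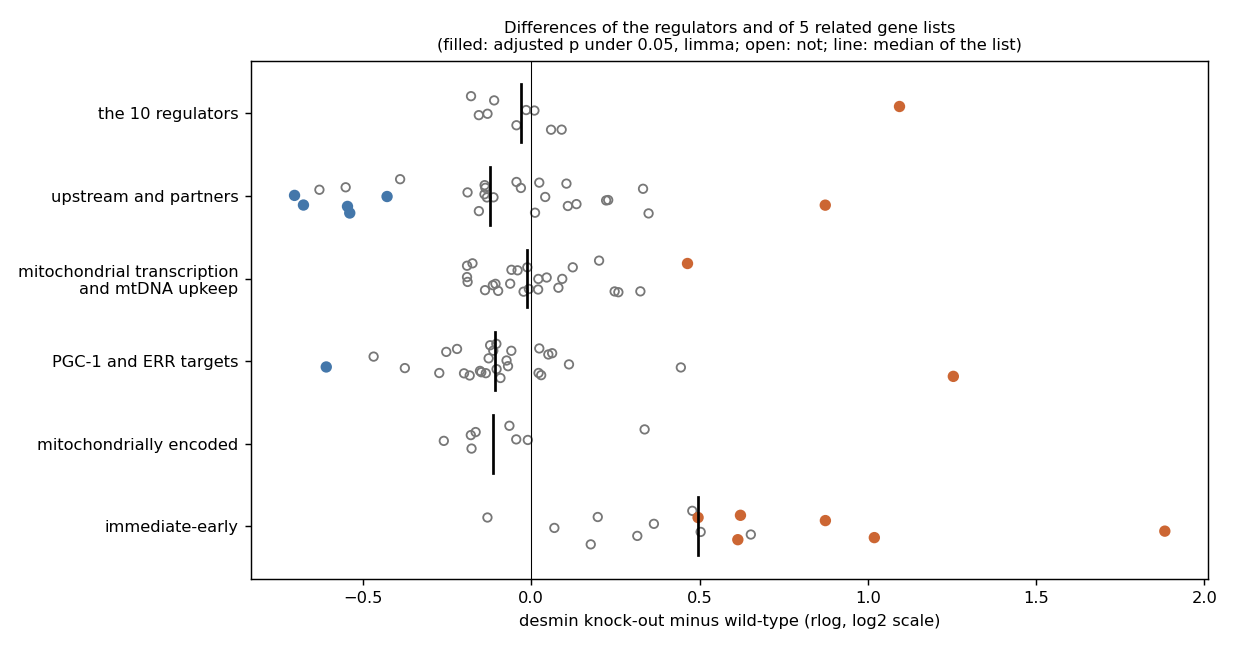
Each point is the difference of a tested gene between desmin knock-out and wild-type muscle on the rlog (log2) scale, by list, with genes at an adjusted p under 0.05 filled (orange higher, blue lower) and the median of the list as a line. Esrrg at 1.09 stands apart from the other 9 regulators, and Prkaa1 and Pdk4 are the highest of their lists.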

How the data were processed

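The values deposited by the authors are rlog values on a log2 scale per Ensembl gene, 1 column for each of 5 desmin knock-out and 5 wild-type mice, and no counts were used here, so depth and counting error are unknown. The submitters' processing notes name cutadapt 2.5, STAR 2.5.4a, Subread 1.6.1, featureCounts and DESeq2 with GRCm38. Libraries were made with a stranded mRNA kit. The settings of the rlog transformation and of the counting by strand are not given in the sources used here. Of the 54232 genes, 26079 had the value 0 in all mice and 54079 were matched to a symbol of GENCODE M21 (GRCm38).

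The test was limma 3.58.1 (R 4.3.3), two-sided, with an expression-dependent variance prior, on the 14289 genes whose average reached log2(10), and p-values were adjusted over these by Benjamini-Hochberg. Single values were compared with exact two-sided permutation tests (scipy 1.17.1). The limma script was tested on simulated data with the same SD in both genotypes. That simulation did not include the larger spread of the wild-type mice or a mouse that stands apart as wild-type mouse 3 does. Nothing in the labels says that the mice came from separate litters, and p-values measure the spread between these mice.

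The members and lists were chosen with earlier results of these data known. The rule named the 10 members, Des, in each pathway list the 3 genes leading by adjusted p, if under 0.05, and the 3 genes outside the members closest to Ppargc1a and to Perm1. The lists were upstream and partner regulators, mitochondrial transcription and mtDNA upkeep, PGC-1 and ERR targets, mitochondrially encoded genes and immediate-early transcripts, with markers of fast and slow fibers, macrophages, fibroblasts, adipocytes, endothelium, erythroid, Schwann and muscle stem cells. Alternatives were other expression limits, 1 common variance prior, quantile normalization, median centring, sample weights (arrayWeights), the replicate number as a block, covariates of 4 Y-linked or 15 immediate-early transcripts, each mouse left out, and an adjusted p under 0.01.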

Additional observations from a re-analysis of the deposited data

Results flagged for a closer look

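In 26 groups of 5 mice, each genotype for the 10 regulators and the 3 within-mouse differences, a mouse lay far from the rest in 1 group, and about 1.3 such groups arise by chance. It was desmin knock-out mouse 2 for Polrmt, with 9.57, whereas the other knock-out mice had 9.39 to 9.43. The gap was 0.742 of the range of the group.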

How the results depend on the processing

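Of 200 values of the 10 regulators under 20 alternatives, 180 had the same direction and the same side of the threshold. The other expression limits, the common variance prior, the replicate block and the stricter adjusted p leave each difference unchanged. In these alternatives only the call could change. The number of changed genes was 4220 with sample weights, 1081 with the immediate-early covariate and 994 at an adjusted p under 0.01, instead of 1956, and 1400 to 2496 with each mouse left out, the highest without wild-type mouse 3. With median centring, 942 genes were higher and 979 lower, instead of 1100 and 856. Ppargc1a passed with sample weights (-0.78), the Y-linked (-0.56) and the immediate-early covariate (-0.78), and ranged from -0.39 to 0.11 with each mouse left out. Values of members that did not pass turned sign: Ppargc1b with sample weights (-0.095), the Y-linked (-0.037) and the immediate-early covariate (-0.12), Esrrb with sample weights (-0.045), and Nrf1 with median centring (-0.033) and quantile normalization (-0.024). With each mouse left out, Ppargc1b ranged from -0.026 to 0.15, Esrrb from -0.031 to 0.18, Nrf1 from -0.046 to 0.097, Tfb2m from -0.069 to 0.028, and Ppargc1a minus Ppargc1b from -0.41 to 0.022. List medians moved for mitochondrial transcription and mtDNA upkeep with median centring (-0.054), for targets (0.014) and mitochondrially encoded genes (0.18) with quantile normalization, and for upstream regulators, which ranged from -0.13 to -0.041 with each mouse left out. The cause was not tested.

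The replicate numbers showed no sign of pairing the mice: deviations of mice with the same number correlated between -0.22 and 0.067, and 0 of 5 knock-out mice correlated best with the wild-type mouse of their number. With so few mice this check cannot exclude a pairing. The replicate block gave 1579 changed genes and changed no call of a member. Esrrg stayed at 1.09 (limma adjusted p = 0.00186), since a balanced block leaves the difference unchanged. Depth is unknown, and the shrinkage of rlog values limits small differences of genes with few reads.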

Other observations

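Genes that lay closest to Esrrg over the 10 mice were looked up after its values had been seen. They were Flrt2 (root mean square difference 0.14), Fhl1, which encodes a LIM domain protein of muscle (0.18), and 2310075C17Rik (0.19). Since they were chosen for likeness to Esrrg over these mice, their higher level in the knock-out group follows from the choice and is given without a test, as log2 differences of 1.00, 1.31 and 0.90. Fhl1 had 17.24 to 17.60 in desmin knock-out and 15.60 to 16.40 in wild-type mice.

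Among the protein-coding genes of mitochondrial DNA, the deposited levels differed widely although most of these genes are transcribed together. The genotype means of mt-Nd4l, mt-Co2, mt-Co3, mt-Atp6 and mt-Atp8 lay between -0.73 and 1.84. Slightly above them was mt-Nd3, with 3.51 in desmin knock-out and 3.57 in wild-type muscle. By contrast, mt-Co1 had 20.95 in desmin knock-out and 21.13 in wild-type muscle and mt-Cytb 20.17 and 20.22. How reads that match several places were counted was not tested.

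The subunit genes of AMP-activated protein kinase differed in direction. Besides Prkaa1 (0.87) and Prkag3 (-0.55), Prkab2 had a log2 difference of -0.63, which did not pass (adjusted p = 0.082 from limma).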
